A study of Mus musculus with 36 samples.

Results

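Axin2, Rnf43, Znrf3, Nkd1, Notum, Lgr5, Ascl2, Ephb2, Ephb3 and Sox9 mark the stem cell and progenitor zone of the intestinal crypt or are switched on there by Wnt signalling. They were chosen by name as a set of 10 genes, with earlier results of these data known. Each was read from the probe set annotated to that gene alone. Of the 10 genes, 9 were measured, each by 1 probe set, among 19938 genes with such a probe set. Ephb2 was not analysed here.

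Distal colon RNA of 36 mice was hybridised to Affymetrix arrays, 1 array per animal, and all 36 animals are labelled with 5% dextran sulfate sodium (DSS), which is given to mice to provoke colitis. Scrambled siRNA was given to 7 animals, an unmodified siRNA against Tnf (siTNF) to 6, an siRNA with O-methyl nucleotides (siTNF-OMe) to 6 and one whose nucleotides carried O-methyl-propanediol (siTNF-OMe-P) to 8, all into the rectum. These 27 animals are called dosed. The other 9 animals are labelled Control. The design text names the dosed groups only, so the treatment of the Control animals beyond the labelled DSS is unknown, and neither strain nor age is given in the sources used here. Per the labels, colon length ran from 7.2 to 8.1 in Control and from 5.2 to 7.1 in dosed animals (as labelled, unit uncertain), with no overlap. Myeloperoxidase (MPO) activity, an enzyme activity of neutrophils, ran from 0.009 to 0.088 U per mg in Control with a median of 0.038 and from 0.031 to 1.35 in dosed animals with a median of 0.391. The MPO ranges overlapped. Nothing in the labels says whether the animals were housed or dosed together, and p-values measure the spread between these animals.

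Values are log2 signals, so a difference of 1 is a doubling, and levels of different genes are not compared because probe sets differ in brightness. The SD of the values within an array ran from 1.55 to 1.89 over the 36 arrays. It was under 1.7 in 8 arrays, of which 4 were Control, 1 scrambled, 1 siTNF and 2 siTNF-OMe-P. Results are therefore also given without these 8 arrays. The 11 colon epithelium markers averaged between 11.5 and 12.2 in Control arrays and their lowest mean in a dosed array was 11.5, so the labelled tissue was represented in every group. Markers of squamous epithelium, which lines the anal canal and not the colon, averaged over 8 in 9 arrays, of which 1 was siTNF, 4 were siTNF-OMe and 4 were siTNF-OMe-P.

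Wnt ligands bind Frizzled and LRP receptors, which stops the destruction of beta-catenin and lets it act with TCF and LEF factors on target genes in the nucleus. Stem cells at the crypt base depend on this signal, which R-spondins from the surrounding stroma amplify through Lgr receptors. Several targets feed back on the pathway: Axin2 rebuilds the destruction complex, Rnf43 and Znrf3 remove Frizzled from the cell surface, Nkd1 binds Dishevelled and Notum is a secreted enzyme that inactivates Wnt ligands. DSS colitis is known to destroy crypts, which then regenerate from surviving epithelial cells.

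RefSeq promoter sequences of GRCm38.p6 were held for 6 of the 10 genes (Axin2, Rnf43, Nkd1, Ascl2, Ephb2 and Ephb3) as 7 windows of 250 bases that end at an annotated start, with 2 of the windows for Rnf43. Znrf3, Notum, Lgr5 and Sox9 had no entry. The windows of Axin2 (chr11:108920099-108920348, plus strand) and Nkd1 (chr8:88527383-88527632, plus strand) are shown because these genes moved in opposite directions. Both windows end inside their gene, whose first annotated base is 108917828 for Axin2 and 88521342 for Nkd1. The sequence just before those bases was not examined. The 2 windows are written 5′ to 3′, with each CG dinucleotide in capitals.
Axin2: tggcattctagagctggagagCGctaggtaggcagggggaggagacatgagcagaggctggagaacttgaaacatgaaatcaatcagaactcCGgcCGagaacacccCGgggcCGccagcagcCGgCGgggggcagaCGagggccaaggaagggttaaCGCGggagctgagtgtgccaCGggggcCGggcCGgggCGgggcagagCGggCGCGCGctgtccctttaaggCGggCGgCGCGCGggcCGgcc
Nkd1: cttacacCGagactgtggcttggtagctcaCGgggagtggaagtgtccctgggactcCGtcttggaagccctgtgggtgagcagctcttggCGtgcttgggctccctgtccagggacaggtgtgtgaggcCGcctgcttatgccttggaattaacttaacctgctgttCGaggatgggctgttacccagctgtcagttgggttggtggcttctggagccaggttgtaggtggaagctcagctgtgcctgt
The Axin2 window held 24 CG dinucleotides and 69.2% G and C, and the Nkd1 window held 6 CG dinucleotides and 58.4% G and C. Over all 32851 windows of this length the medians were 6 CG dinucleotides and 52.4% G and C, so the Nkd1 window lay at the median for CG. The TCF and LEF motif, CTTTG followed by A or T at each of the next 2 bases, was searched on both strands, and so was its CTTTG core alone. The full motif was found in 0 of the 7 windows and in 14.8% of all windows, and the core in 0 of 7 and in 48.6%. These letters are thus not in these windows, which says nothing of sites elsewhere.

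The dosed colons differed from Control in 8 of the 9 measured genes. Axin2, Rnf43, Znrf3, Lgr5, Ascl2, Ephb3 and Sox9 fell, Nkd1 rose, and Notum did not pass the test, for the mean of the 4 dosed groups over Control (limma, Benjamini-Hochberg adjusted p under 0.05). Over all 28853 probe sets, 21.9% were called in this comparison, 9.16% lower and 12.7% higher. The members were chosen with earlier results of these data known, so their count is a description and no test was made of the set. Dosed animals also had shorter colons and a higher median MPO activity than Control. The parts of dosing and of disease severity in these differences therefore cannot be told apart. In these bulk samples, fewer cells of a type and less RNA per cell cannot be told apart either. The median difference over all probe sets was -0.04.

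**Figure D1:**
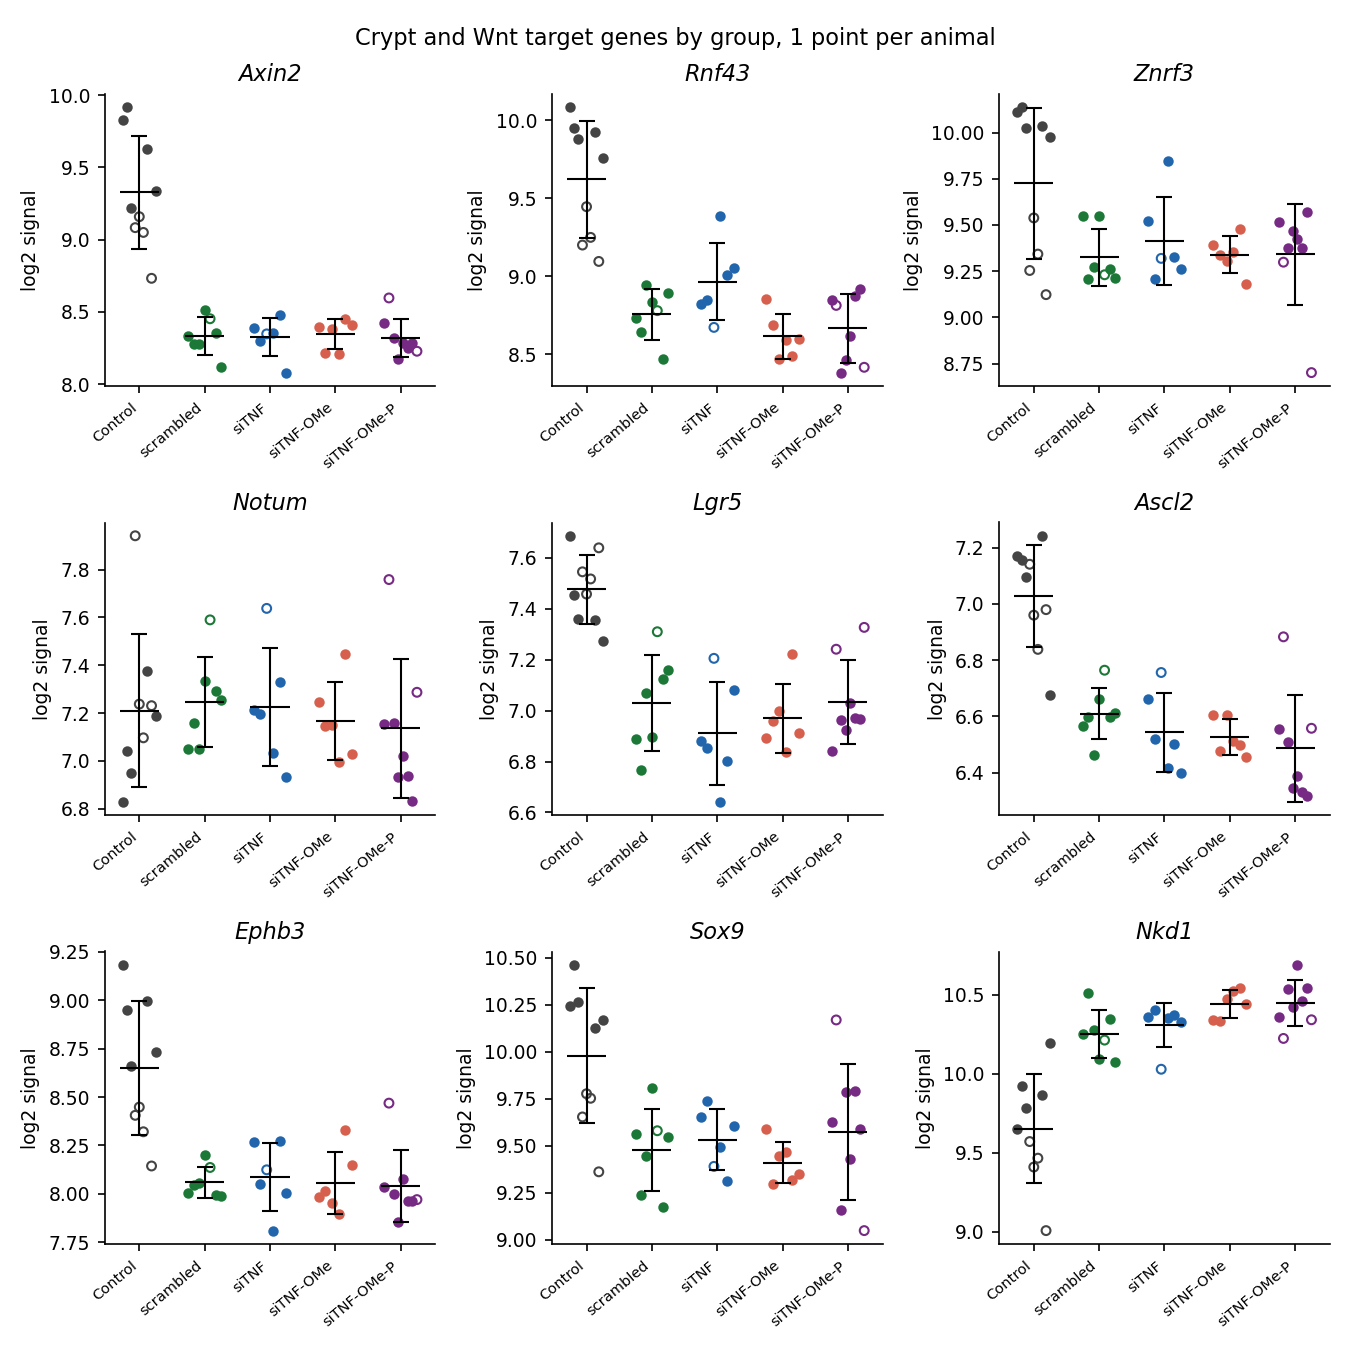
Log2 signal of the 9 measured genes in every animal by group (1 point per animal, with the group mean and SD as bars; open circles are the 8 arrays with an SD under 1.7; vertical axes do not start at 0 and differ between panels). All 27 dosed animals lie below all 9 Control animals for Axin2, and 24 of 27 lie above them for Nkd1.

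Among the feedback genes, Axin2 showed the clearest separation. Control arrays ran from 8.73 to 9.92 with a median of 9.22. The dosed medians were 8.33 in scrambled (8.12 to 8.51), 8.35 in siTNF (8.08 to 8.48), 8.39 in siTNF-OMe (8.21 to 8.45) and 8.28 in siTNF-OMe-P (8.17 to 8.60). All 27 dosed arrays lay below the lowest Control array, and the ranges of the dosed groups overlapped one another. Over all probe sets, 0.468% had every dosed array below every Control array. The mean of the dosed groups was 2.00-fold lower, a log2 difference of -0.999 ± 0.080 (SE, n = 27 and 9, limma adjusted p = 2.47e-11).

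Rnf43, a ubiquitin ligase that clears Frizzled receptors, ran from 9.10 to 10.09 in Control with a median of 9.76. Its median was 8.78 in scrambled (8.47 to 8.95), 8.93 in siTNF (8.67 to 9.39), 8.59 in siTNF-OMe (8.47 to 8.85) and 8.71 in siTNF-OMe-P (8.38 to 8.92). In 26 of 27 dosed arrays it was below the lowest Control array, and the exception was the highest siTNF array. The dosed mean was 1.83-fold lower (log2 difference -0.87 ± 0.10, limma adjusted p = 2.52e-08).

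Znrf3, the paralogue of Rnf43 with the same action on Frizzled, moved less clearly. Control arrays ran from 9.12 to 10.14 and split by array SD: the 4 Control arrays of SD under 1.7 lay between 9.12 and 9.54 and the other 5 between 9.97 and 10.14. Dosed arrays ran from 8.70 to 9.85 with a median of 9.34, and 1 of 27 lay below the lowest Control array. The dosed mean was lower by a log2 difference of -0.37 ± 0.10 (limma adjusted p = 0.00635). Taken singly, siTNF-OMe-P passed (-0.39, limma adjusted p = 0.0337), while scrambled (-0.38, 0.0597), siTNF (-0.33, 0.126) and siTNF-OMe (-0.39, 0.0605) did not, and none of the differences of Znrf3 between dosed groups passed. Without the 8 arrays the dosed mean difference was -0.66 (limma adjusted p = 2.40e-07) and all 23 remaining dosed arrays lay below the 5 remaining Control arrays.

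Notum did not pass in any comparison. Control arrays ran from 6.83 to 7.94 with a median of 7.19 and dosed arrays from 6.83 to 7.76 with a median of 7.16, so the dosed range lay within the Control range. The log2 difference was -0.02 ± 0.10 (95% interval -0.22 to 0.18, limma adjusted p = 0.920). Its probe set was dimmer than all but 29.6% of the probe sets.

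The stem cell markers Lgr5 and Ascl2 also fell. Lgr5, the R-spondin receptor that marks crypt base stem cells, ran from 7.27 to 7.69 in Control with a median of 7.46. Its dosed medians were 7.07 in scrambled (6.77 to 7.31), 6.87 in siTNF (6.64 to 7.21), 6.94 in siTNF-OMe (6.84 to 7.22) and 6.97 in siTNF-OMe-P (6.84 to 7.33). In 25 of 27 dosed arrays Lgr5 was below every Control array. The dosed mean was 1.41-fold lower (log2 difference -0.49 ± 0.06, limma adjusted p = 3.49e-07).

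Ascl2, a transcription factor that maintains the stem cell programme, ran from 6.68 to 7.24 in Control with a median of 7.09 and from 6.32 to 6.88 in dosed arrays with a median of 6.52. In 24 of 27 dosed arrays it was below every Control array, and its lowest Control array stood within the dosed range. The dosed mean was 1.40-fold lower (log2 difference -0.49 ± 0.05, limma adjusted p = 1.21e-08). The probe sets of Lgr5 and Ascl2 are among the dimmer on the array, with 27.6% and 18.2% of probe sets dimmer.

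Ephb3 and Sox9 reach further up the crypt than Lgr5. Ephb3, a receptor that keeps crypt cells in place through repulsion, ran from 8.14 to 9.18 in Control with a median of 8.66 and from 7.81 to 8.47 in dosed arrays with a median of 8.01. For 21 of 27 dosed arrays it was below every Control array, and the dosed mean was 1.50-fold lower (log2 difference -0.59 ± 0.08, limma adjusted p = 4.91e-07). Sox9, a transcription factor of stem and progenitor cells, ran from 9.36 to 10.46 in Control with a median of 10.13 and from 9.05 to 10.17 in dosed arrays with a median of 9.49. The groups overlapped more here, with 8 of 27 dosed arrays below every Control array, and the dosed mean was 1.40-fold lower (log2 difference -0.48 ± 0.09, limma adjusted p = 1.93e-04). Without the 9 arrays of high squamous marker signal, Sox9 no longer passed in siTNF (-0.47, limma adjusted p = 0.0605), siTNF-OMe (-0.58, 0.193) or siTNF-OMe-P (-0.51, 0.0633). With all arrays these differences were -0.48, -0.55 and -0.43, so they did not shrink much. This step left out 1 of 6 siTNF, 4 of 6 siTNF-OMe and 4 of 8 siTNF-OMe-P arrays. The share of all probe sets called went from 13.8% to 9.42%, from 14.8% to 3.48% and from 15.9% to 7.94%.

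Nkd1, an inhibitor that binds Dishevelled and a Wnt target in many tissues, moved the other way. Control arrays ran from 9.01 to 10.19 with a median of 9.65. Its dosed medians were 10.25 in scrambled (10.07 to 10.51), 10.36 in siTNF (10.03 to 10.40), 10.46 in siTNF-OMe (10.34 to 10.54) and 10.44 in siTNF-OMe-P (10.22 to 10.69). In 24 of 27 dosed arrays Nkd1 was above the highest Control array, which included every array of the 2 modified siRNAs. Nkd1 thus did not have every dosed array above every Control array, as 1.15% of all probe sets did. The share of probe sets with 24 of 27 above was not computed. The dosed mean of Nkd1 was higher by a log2 difference of 0.71 ± 0.08 (SE, n = 27 and 9, limma adjusted p = 7.66e-08). A rise at least as large in this comparison was found for 2.29% of all probe sets. In order of their means the groups were Control (9.65), scrambled (10.25), siTNF (10.31), siTNF-OMe (10.44) and then siTNF-OMe-P (10.45). Only the step from Control to scrambled passed the test (0.60 ± 0.11, limma adjusted p = 2.40e-04).

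Each dosed group gave much the same picture on its own. Against Control, 7 members fell in siTNF-OMe-P and 6 in each of the other dosed groups, with Znrf3 the gene that made the difference, and Nkd1 rose in all 4. Of all probe sets, scrambled had 11.7% called (4.45% lower and 7.27% higher), siTNF 13.8% (4.71% and 9.09%), siTNF-OMe 14.8% (5.81% and 9.01%) and siTNF-OMe-P 15.9% (6.58% and 9.35%). These 4 comparisons share the Control arrays, so their likeness to each other is partly built in. Taking the groups in that order, the log2 differences were -0.98, -1.04, -0.97 and -1.01 for Axin2 and 0.60, 0.65, 0.79 and 0.80 for Nkd1. Those of Lgr5 were -0.46, -0.57, -0.50 and -0.44.

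**Figure D2:**
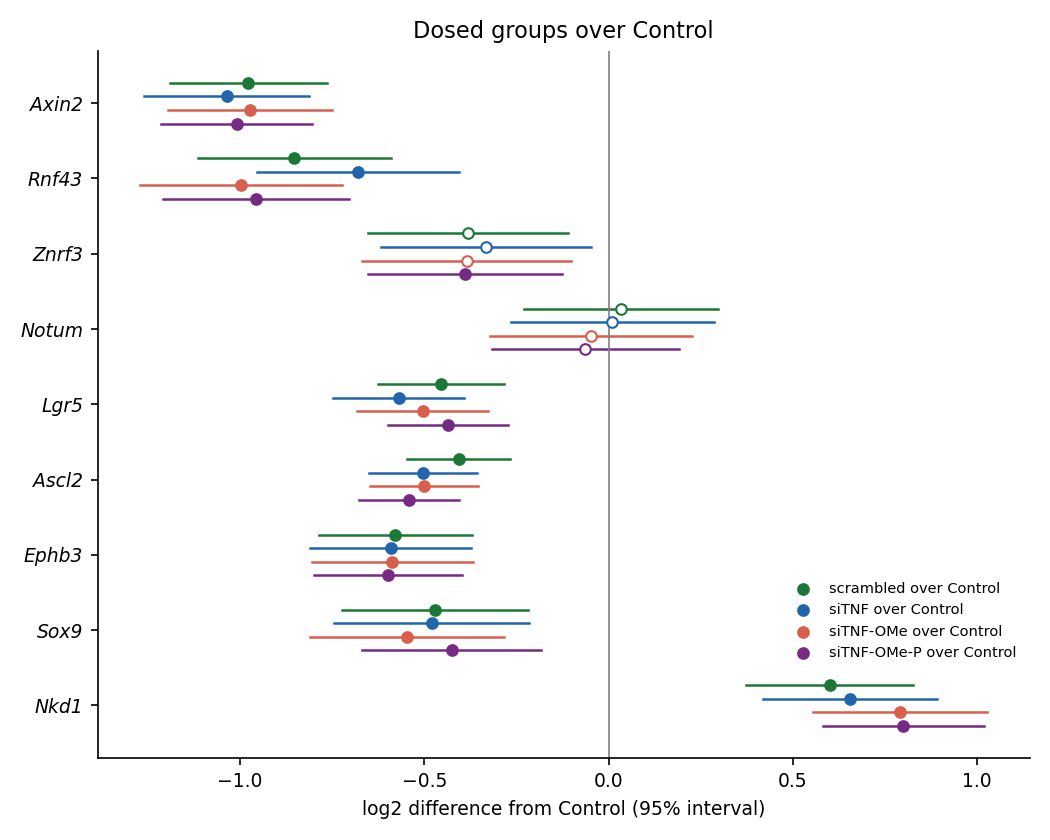
Log2 difference of each dosed group from Control with its 95% interval for the 9 measured genes (filled circles passed an adjusted p of 0.05 in limma, open circles did not). The intervals of the 4 dosed groups overlap for every gene, and Nkd1 alone lies to the right of 0 throughout.

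The comparison among the siRNAs asked whether the Tnf-directed sequence or its chemical modification moved these genes. No call was made: of the 54 differences (9 genes in 6 pairs of dosed groups), 0 passed limma's adjusted test and 1 had an unadjusted p under 0.05. This was Rnf43 in siTNF-OMe over siTNF, at -0.32 (95% interval -0.62 to -0.02, unadjusted p = 0.0390, limma adjusted p = 1.00). Over all probe sets the share called was 0% in each of the 6 comparisons, and at an unadjusted p under 0.05 over scrambled stood 2.9% of probe sets for siTNF-OMe-P, 1.58% for siTNF-OMe and 1.08% for siTNF, 1.71% and 3.47% for the modified siRNAs over siTNF, and 0.256% for siTNF-OMe-P over siTNF-OMe.

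The intervals show what the arrays could still hide. Over the 54 differences the lowest bound was -0.62 (Rnf43 in siTNF-OMe over siTNF) and the highest 0.46 (Rnf43 in siTNF over scrambled), and the widest interval was that of Znrf3 in siTNF-OMe over siTNF (-0.37 to 0.26). For Axin2 every interval lay between -0.30 and 0.31, well inside its difference from Control. The largest difference of Nkd1 was 0.20 for siTNF-OMe-P over scrambled (95% interval -0.03 to 0.43, limma adjusted p = 1.00). The moderated F test over the 4 dosed groups called 0 members and 0% of probe sets (512 probe sets, or 1.77%, at an unadjusted p under 0.05), while the F test over all 5 groups called 7 of the 9 members against 13.7% of probe sets, with Znrf3 (limma adjusted p = 0.116) and Notum (1.00) not called.

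Within the 27 dosed animals the members were also set against the measures of disease in the labels, with group and batch in the fit. Slopes on MPO activity, on colon length and on the weight to length ratio were called by limma for 0 of the 9 members and for 0% of probe sets each. At an unadjusted p under 0.05 stood 3.41% of probe sets for MPO, 2.43% for length and 7.18% for the ratio. Znrf3 alone among the members had an unadjusted p under 0.05, with a slope of -0.08 log2 per doubling of MPO activity (95% interval -0.15 to -0.01, unadjusted p = 0.0297, limma adjusted p = 0.980). Axin2, the gene with the clearest group difference, had a slope of 0.00034 per doubling (95% interval -0.053 to 0.054, limma adjusted p = 0.998).

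The contrast between Nkd1 and the genes that fell held in every dosed animal. With each gene set to its Control mean, the average of the 7 fallen members ran from -0.39 to 0.36 in Control arrays and from -0.79 to -0.33 in dosed arrays, while Nkd1 ran from -0.65 to 0.54 in Control and from 0.38 to 1.04 in dosed arrays. Their gap, Nkd1 minus the average of the fallen members, ran from -0.36 to 0.53 in Control with a median of -0.00039. It was 0.92 to 1.58 in scrambled, 0.95 to 1.36 in siTNF, 1.28 to 1.58 in siTNF-OMe and 0.91 to 1.69 in siTNF-OMe-P. The lowest dosed array thus stood above the highest Control array. The fallen members were chosen by their direction, so this gap is a description and no test was made of it.

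**Figure D3:**
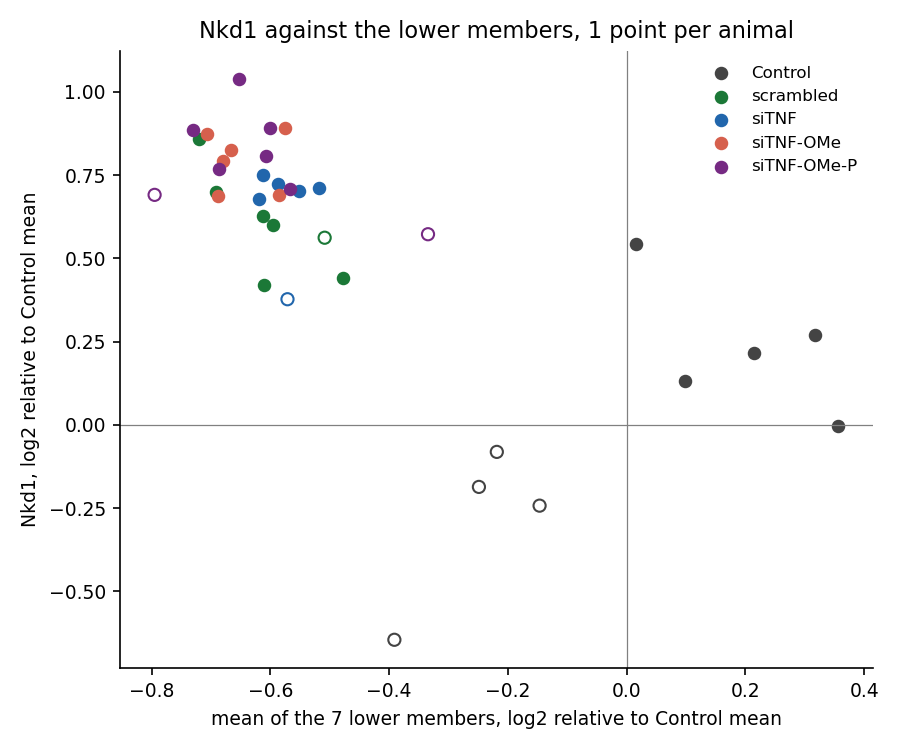
Nkd1 (vertical axis) against the average of the 7 members that fell (horizontal axis) in every animal, both as log2 signal relative to the Control mean; open circles are arrays with an SD under 1.7. Dosed animals lie at the upper left, while among Control animals both values are lower in the open circles than in the filled ones.

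Between the Control arrays of low and of higher SD, Nkd1 differed in the same direction as most of the fallen members. The mean of the 4 Control arrays of SD under 1.7 minus that of the other 5 was -0.58 for Axin2, -0.67 for Rnf43, -0.74 for Znrf3, -0.57 for Ephb3, -0.62 for Sox9 and -0.52 for Nkd1. For Notum it was 0.30, for Lgr5 0.11 and for Ascl2 -0.09, so these were not lower there as a group. This split followed brightness. Notum, Lgr5 and Ascl2 had 29.6%, 27.6% and 18.2% of probe sets dimmer, while Ephb3 had 52.4% and the other measured genes more. The part of brightness and array SD in this likeness of Nkd1 to fallen members was not tested. Without the 8 arrays of SD under 1.7 the dosed mean differences were -1.24 for Axin2, -1.15 for Rnf43, -0.47 for Lgr5, -0.54 for Ascl2, -0.82 for Ephb3, -0.75 for Sox9 and 0.50 for Nkd1, with 57.1% of all probe sets called. All 7 fallen members had the 23 remaining dosed arrays below the 5 remaining Control arrays, where 4.12% of all probe sets did, and 21 of 23 dosed arrays lay above Control for Nkd1.

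Of the 5 genes most like Nkd1 over the arrays, 3 belong to contractile cells. By Pearson's r over the 36 arrays, which share platform, group and batch, these were Rexo2 (0.948), Kcnmb1 (0.947), Lsp1 (0.946), Tagln (0.943) and Cald1 (0.941). Kcnmb1 encodes a subunit of a smooth muscle potassium channel, Tagln (transgelin) and Cald1 (caldesmon) encode actin-binding proteins of smooth muscle, and Lsp1 is a leukocyte protein. After group, batch and array SD were taken out, the genes were Copz2 (0.865), Gnao1 (0.835), Csrp1 (0.809), Dmpk (0.808) and Cnn2 (0.777). Of the genes with a probe set of their own, 99% had an r below 0.875 before and below 0.561 after this step.

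Smooth muscle markers rose in the dosed colons, and so did markers of several other cell types. Beside 12.7% of all probe sets that rose and 9.16% that fell, all 8 smooth muscle markers rose in the dosed mean over Control. Their median log2 difference was 0.49 (0.29 for Acta2 to 0.80 for Des). All 8 also rose without the 8 arrays of low SD (median 0.35). There 57.1% of all probe sets were called, or 16467 of 28853, of which 9429 were higher. The average of the 8 smooth muscle markers ran from 11.1 to 12.1 in Control and from 11.99 to 12.37 in dosed arrays. Of the fibroblast markers 8 of 9 rose (median 0.59), and without the 8 arrays 6 of 9 (median 0.26). Of the macrophage markers 10 of 10 rose with and without those arrays (medians 1.41 and 1.07). The colon epithelium markers gave 2 that rose and 1 that fell of 11 (median 0.04). Markers of neutrophils gave 5 up and 0 down of 7, endothelium 5 and 0 of 5, enteric neurons and glia 4 and 0 of 5, goblet cells 5 and 0 of 7, mature colonocytes 2 and 3 of 9, lymphocytes 1 and 3 of 7, subepithelial stromal cells 1 and 1 of 5 and squamous epithelium 2 and 0 of 9. The part of these cell types in the results for Nkd1 and the fallen members was not tested.

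**Figure D4:**
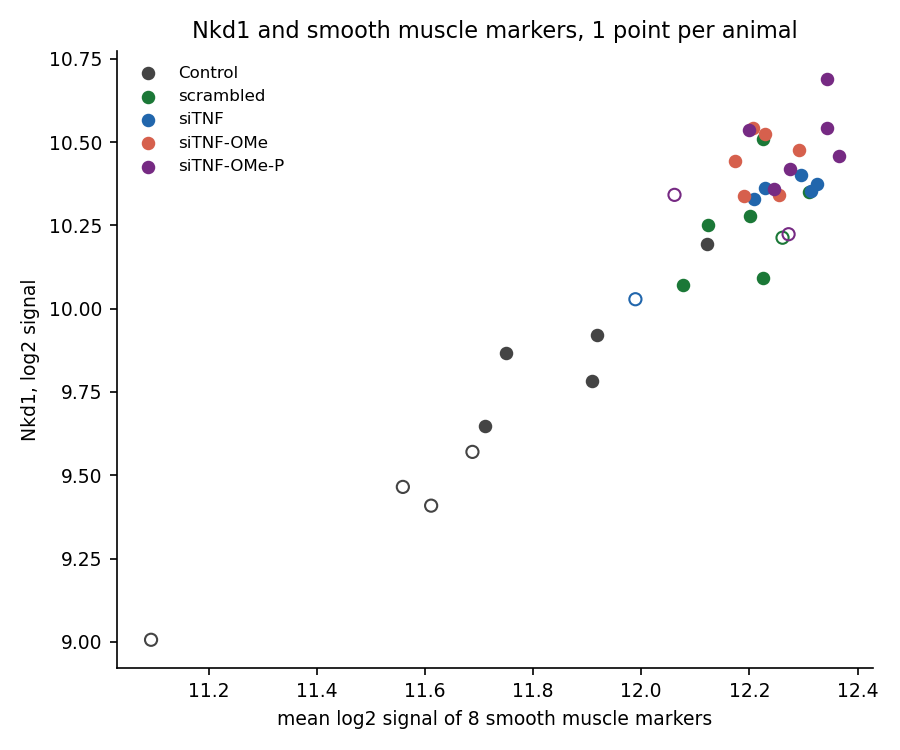
Log2 signal of Nkd1 (vertical axis) against the mean log2 signal of the 8 smooth muscle markers (horizontal axis) in every animal, coloured by group; open circles are arrays with an SD under 1.7. Both are lowest in the same Control array, an open circle (9.01 for Nkd1, 11.1 for the markers), and higher in the dosed arrays than in most Control arrays. Their relation within the dosed groups was not tested.

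For Axin2 the most alike genes were Fut9 (0.957), Rnf32 (0.956), Mlxipl (0.948), Kcnn4 (0.946) and Cbs (0.946), which all fell in the dosed mean by log2 differences of -1.04, -1.25, -0.59, -1.32 and -1.45. After group, batch and array SD were taken out they were Kif12 (0.880), Mir125a (0.858), Mex3a (0.854), Dmrta2 (0.851) and Odf3l2 (0.847). Of these, Kif12 fell in the dosed mean (-0.35), while Mir125a, Mex3a, Dmrta2 and Odf3l2 were not called. Mex3a is itself a marker of crypt progenitor cells (-0.10, limma adjusted p = 0.390). Kif12, Mir125a, Dmrta2 and Odf3l2 are in none of the gene lists used here. Among the members, Axin2 had r = 0.937 with Ephb3, 0.874 with Rnf43 and 0.858 with Ascl2 on the deposited values, and 0.795, 0.172 and 0.648 after that step. With Notum, which did not pass, it had 0.044 and 0.744. Of the genes with a probe set of their own, 99% had an r with Axin2 below 0.840 before and below 0.751 after that step. Nkd1 had r = -0.80 with Lgr5 and -0.65 with Axin2 on the deposited values, and -0.19 and 0.16 after it.

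The rest of the pathway was followed through lists of genes, with the genes named here taken from those called in scrambled over Control. The counts below are for the dosed mean over Control, in which 12.7% of all probe sets rose and 9.16% fell. Counts without the 8 arrays of low SD stand beside 57.1% of all probe sets called, or 16467 of 28853, of which 9429 were higher. Of the secreted Wnt antagonists, 7 of 13 rose and 0 fell (median 0.19), among them Sfrp1 (1.13 ± 0.17 in scrambled over Control, limma adjusted p = 1.47e-05) and Sostdc1 (0.51 ± 0.11, limma adjusted p = 9.21e-04). Both encode proteins that block Wnt outside the cell. The count was 7 and 0 without the 8 arrays.

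Of the Wnt ligands and their processing genes, 3 of 21 rose and 0 fell (median -0.00093), with Wnt5a, a ligand made mainly by stroma, at 0.66 ± 0.17 in scrambled over Control (limma adjusted p = 0.00665). Rspo3, the main stromal R-spondin, was the single call among 6 R-spondins and Lgr receptors, at 0.82 ± 0.12 (limma adjusted p = 8.13e-06). Of the receptors, 5 of 15 rose and 0 fell (median 0.08), with Fzd1 at 0.65 ± 0.16 (limma adjusted p = 0.00613). Without the 8 arrays the counts were 11 up and 1 down for ligands, 5 up and 1 down for R-spondins and 3 up and 4 down for receptors. Called genes were more frequent over the whole array there, at 57.1% of probe sets in both directions together (9429 of the 16467 called were higher). No test of the lists was made, so these counts are not read as a change of the lists.

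Of the beta-catenin core and TCF factors, 3 of 20 rose and 1 fell (median 0.10), the latter being Lef1, a Wnt-induced partner of beta-catenin, at -0.28 ± 0.08 in scrambled over Control (limma adjusted p = 0.0163). Without the 8 arrays 1 rose and 8 fell, again beside 57.1% of all probe sets called. Other Wnt target and feedback genes gave 2 up and 1 down of 16 (median 0.09), with Jun at 0.65 ± 0.18 (limma adjusted p = 0.0135), and 6 up and 3 down without the 8 arrays. In all, 3 of these 16 other targets were called, beside 21.9% of all probe sets.

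Other crypt stem and progenitor markers gave 3 up and 7 down of 18 (median -0.09). Kcne3, a potassium channel subunit, fell by 1.38 on the log2 scale in scrambled over Control (SE 0.25, limma adjusted p = 1.41e-04) and Cdca7, a gene of proliferating progenitors, by 0.86 (SE 0.11, limma adjusted p = 1.45e-06), while the water channel gene Aqp4 rose by 0.84 (SE 0.20, limma adjusted p = 0.00411). Of the proliferation genes, 17 of 20 fell and 0 rose (median -0.78). Top2a, a topoisomerase of dividing cells, was at -1.46 ± 0.22 and the cyclin gene Ccnb2 at -1.45 ± 0.14 (limma adjusted p = 1.40e-05 and 1.28e-08). All 20 fell without the 8 arrays.

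The BMP pathway, which opposes Wnt along the crypt axis, gave 6 up and 2 down of 13 (median 0.35). Grem1, a secreted BMP antagonist of stromal cells, rose by 1.71 ± 0.21 in scrambled over Control (limma adjusted p = 6.87e-07) and the receptor gene Bmpr1a by 0.50 ± 0.14 (0.0160), and the BMP target genes Id3 and Id1 were at -0.79 ± 0.22 (0.0155) and -0.68 ± 0.21 (0.0246). Without the 8 arrays the count was 4 up and 4 down. The Notch pathway gave 3 up and 4 down of 11 (median -0.07), with the receptor gene Notch2 at 0.35 ± 0.11 and its nuclear partner Rbpj at 0.28 ± 0.08 (limma adjusted p = 0.0345 and 0.0140), and 2 up and 6 down without the 8 arrays.

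Genes of the fetal-like state that regenerating colon epithelium is known to enter rose in 8 of 10 cases with none falling in the dosed mean over Control (median 0.39). Without the arrays of squamous marker mean over 8, 5 rose and 0 fell (median 0.34), where 16.1% of all probe sets were called. In scrambled over Control alone, 2 of the 10 rose and 0 fell. The annexin genes Anxa1 and Anxa3 were at 0.89 ± 0.17 and 0.43 ± 0.13 in scrambled over Control (limma adjusted p = 4.34e-04 and 0.0198). Without the 8 arrays of low SD, 4 rose and 1 fell in the dosed mean over Control, beside 57.1% of all probe sets called.

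**Figure D5:**
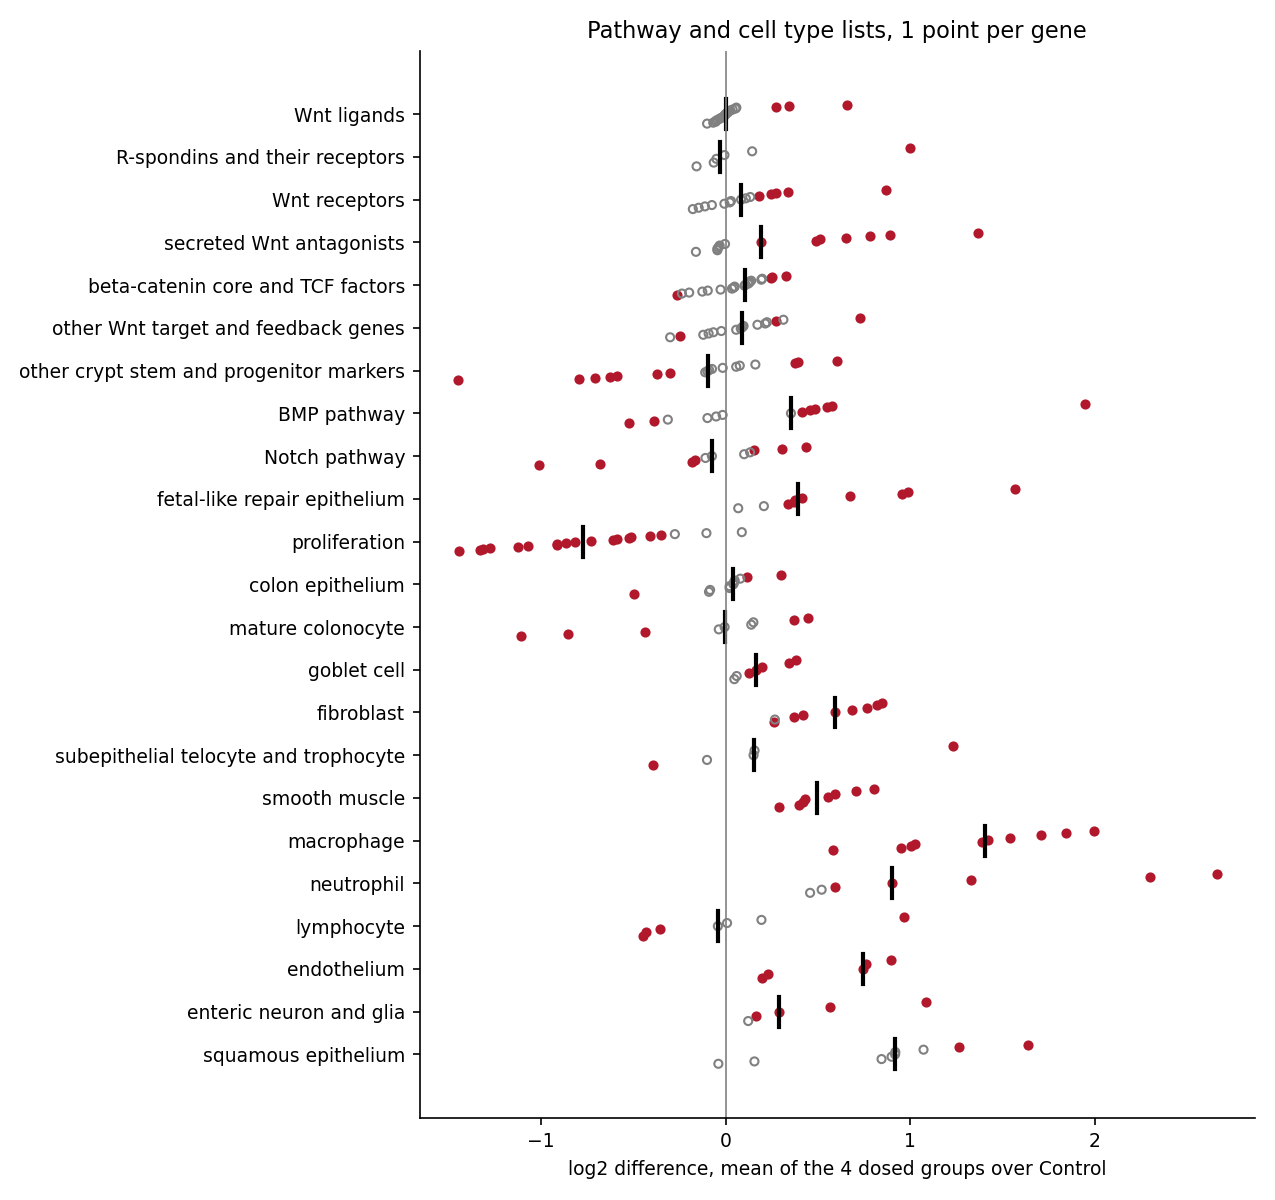
Log2 difference of the mean of the 4 dosed groups over Control for the genes of each list (1 point per gene, black bar at the list median, red points passed an adjusted p of 0.05 in limma). Proliferation genes lie at the left with a median of -0.78, and macrophage markers at the right with a median of 1.41.

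Batches were checked for the 2 genes that define the contrast. In hybridization batches 1 and 2 alone, the dosed mean difference was -1.12 and -0.92 for Axin2 and 0.64 and 0.77 for Nkd1. In amplification batches 1, 2 and 3 alone it was -1.46, -0.82 and -0.95 for Axin2 and 0.55, 0.82 and 0.67 for Nkd1. Axin2 passed in all 5 batches and Nkd1 in 4, missing in amplification batch 3 (limma adjusted p = 0.221). In hybridization batch 2 alone, Znrf3 (-0.31, limma adjusted p = 0.180) and Sox9 (-0.34, 0.109) did not pass.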

How the data were processed

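Distal colon RNA was profiled on 36 Affymetrix arrays, 1 per animal, in 3 amplification and 2 hybridization batches by the dates in the labels. The deposited signals of each probe set are on a log2 scale and came from Partek and RMA, per the submitters' processing notes; versions and any batch correction are not given in the sources used here. Per the labels, RNA was amplified from 25 ng. No probe set was filtered out. Each of 28853 probe sets was fitted over all arrays in limma 3.58.1 (R 4.3.3), with terms for group, amplification batch and hybridization batch, with a mean-variance trend and 28 residual degrees of freedom, and two-sided p-values were Benjamini-Hochberg adjusted in each comparison at a threshold of 0.05. The number of arrays limits the precision. In the platform annotation 21789 probe sets carry 1 gene, 1621 several and 5443 none; a gene was read from its single-gene probe set of highest mean. Of 267 genes in 23 lists, 255 were measured. The rule for other names takes up to 2 risen and 2 fallen called genes per pathway list in scrambled over Control, and the 5 genes most correlated with Nkd1 and with Axin2. The members and lists were chosen with earlier results of these data known. The fit was tested on simulated data. Alternatives were other batch terms, each batch alone, the replicate number as a block, only the groups compared, a filter on dim probe sets, quantile normalization, median centring, other moderation, array weights, array SD as a covariate and each array left out; leaving out arrays of SD under 1.7 or of squamous marker mean over 8 was chosen after seeing the data. Figures were drawn with Python 3.11.15 and matplotlib 3.10.9.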

Additional observations from a re-analysis of the deposited data

Results flagged for a closer look

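In 5 of the 45 sets formed by 9 genes and 5 groups, 1 animal stood apart from the rest of its group by Dixon's criterion, which chance meets in about 1 of 20 sets. All 5 of these values come from arrays of SD under 1.7. In siTNF-OMe-P, replicate 8 had the lowest Znrf3 (8.70, with the next at 9.30), and replicate 2 had the highest Ascl2 (6.88, with the next at 6.56) and the highest Ephb3 (8.47, with the next at 8.07). In siTNF, replicate 3 had the lowest Nkd1 (10.03, with the next at 10.33). In Control, replicate 4 had the highest Notum (7.94, with the next at 7.37). The part of array SD in these values was not tested.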

How the results depend on the processing

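No difference of a member from Control that was called changed sign under any alternative. The number of called members fell for scrambled over Control from 7 to 3 in hybridization batch 2 alone and to 2 in amplification batch 1 alone, and for siTNF-OMe over Control from 7 to 4 in amplification batch 1 alone. In amplification batch 3 alone it was 0 for each of the 4 dosed groups over Control and 1 for the dosed mean, against 7 or 8 and 8. For the F test over the 5 groups it fell from 7 to 2 in amplification batch 1 alone and to 0 in amplification batch 3 alone. These fits hold fewer arrays. The call of Nkd1 was among those lost for scrambled in hybridization batch 2 and amplification batch 1, and for siTNF-OMe in amplification batch 1. It was also lost for siTNF in hybridization batch 1 alone. With each array left out in turn, the counts against Control and for the F test over the 5 groups ran from 7 to 8, that of the dosed mean from 8 to 8, and those among dosed groups and for slopes from 0 to 0; every call that changed was of Znrf3. Without siTNF-OMe-P replicate 8, the Znrf3 call in siTNF-OMe-P was lost (-0.31, limma adjusted p = 0.112).

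Under quantile normalization Znrf3 passed in scrambled, siTNF and siTNF-OMe (-0.42, -0.40 and -0.43), and under median centring it no longer passed in siTNF-OMe-P (-0.39, limma adjusted p = 0.0830). With only the groups compared in the fit, Sox9 did not pass in scrambled, siTNF or siTNF-OMe-P, nor Rnf43 in siTNF (-0.69, limma adjusted p = 0.0523), nor Znrf3 in siTNF-OMe-P (-0.38, limma adjusted p = 0.184). With a replicate block instead of the batches, Znrf3 passed in scrambled (-0.46, limma adjusted p = 0.00769) and siTNF-OMe (-0.43, 0.0160) and no other member's call changed. Over 64 pairs of animals of the same number the correlation of deviations ran from -0.70 to 0.87 with a median of 0.12, against -0.0056 for animals of other numbers. It exceeded 0.1 in 32 of the 64 pairs. Batch was not taken out of these deviations, and animals of the same number often share a batch, so this check cannot decide on a pairing. The numbers were not taken as a pairing in the main fit. A mean over several probe sets per gene was not run, since each member has 1. Leaving out the 11541 dimmest probe sets removes Lgr5, Ascl2 and Notum.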

Other observations

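Some genes of the crypt and Notch lists, chosen after their values were seen, moved as far as the members. Cdk6, a cell cycle kinase gene of progenitors, and Hopx, a marker of slowly cycling crypt cells, were below every Control array in all 27 dosed animals. Over all probe sets, 0.468% were. The log2 differences of Cdk6 and Hopx were -0.63 ± 0.05 and -0.59 ± 0.06 in the dosed mean over Control (SE, limma adjusted p = 4.24e-11 and 1.08e-09). Atoh1, which drives secretory fate, was at -1.01 ± 0.20 (limma adjusted p = 2.36e-04), and Hes1, which opposes that fate, at -0.68 ± 0.17 (limma adjusted p = 0.00269). In the list of subepithelial stromal markers, Pdpn was at 1.23 ± 0.13 (limma adjusted p = 1.13e-08) and Gli1 at -0.40 ± 0.07 (limma adjusted p = 2.02e-05).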
